A study of Homo sapiens with 22 samples.

Results

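Open chromatin of the multiple myeloma line KMS34 after 4 days in the NSD2 degrader NSD2LDD was compared with that after 4 days in the vehicle DMSO. The comparison used 4 of the 22 ATAC-seq libraries of the series, chosen by the cell line, agent and time point in their labels: 2 from KMS34 cells in NSD2LDD at day 4 and 2 from KMS34 cells in DMSO at day 4. The title of NSD2LDD library 2 lacks the day number, and its library name and time point label put it at day 4. KMS34 carries the t(4;14) translocation in both groups, and per the labels drug or vehicle was renewed with fresh medium every 3 to 4 days. No concentration of NSD2LDD is stated in the labels. The 2 libraries of a group are numbered as duplicates of 1 cell line, nothing says that they came from separate cultures, and p-values therefore measure only the spread between these samples, which may be technical. The other 6 KMS34 libraries (NSD2LDD and DMSO at day 10, and day 0, 2 each) set the spread in the tests and show whether a region was seen at other times.

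NSD2 is a histone methyltransferase that places dimethylation on lysine 36 of histone H3, a mark of gene bodies and of the stretches between genes. In t(4;14) myeloma the translocation joins NSD2, and in most cases the receptor tyrosine kinase gene FGFR3, to enhancers of the heavy chain gene of antibodies, and both are overexpressed. The resulting excess of NSD2 spreads its mark and limits the domains of H3K27 trimethylation. ATAC-seq inserts sequencing adapters into accessible DNA, so peaks mark promoters, enhancers and other open sites. The question put to these libraries is how the set of open sites looks once the NSD2 protein has been removed. The degrader acts on the protein, and peaks over the NSD2 gene do not show whether the protein was degraded.

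The NSD2LDD lists held 44220 and 49543 peaks, and the DMSO lists held 34165 and 52518. The DMSO libraries thus lay on both sides of the NSD2LDD libraries. The peaks covered 23.1 and 25.2 Mb in NSD2LDD and 20.0 and 29.9 Mb in DMSO, or 24.1 ± 1.44 Mb against 24.9 ± 7.01 Mb (mean ± SD, n = 2 each). Median peak width was 421 and 404 bp in NSD2LDD and 474 and 448 bp in DMSO, and here the groups did not overlap. No permutation test of 2 libraries against 2 can reach an exact two-sided p below 0.333, and none is printed. When every list was shortened to its 34165 strongest peaks by the deposited -log10 q, the lists covered 20.2 and 20.5 Mb in NSD2LDD and 20.0 and 23.8 Mb in DMSO. The groups then overlapped in median width too, at 506 and 510 bp in NSD2LDD and 474 and 588 bp in DMSO. The weakest peak kept at that length had a -log10 q of 7.69 and 11.2 in NSD2LDD, against 2.01 and 13.1 in DMSO, so equal length is not equal stringency. Read depth is unknown, and a site without a peak cannot be told from one that was sequenced too thinly to call.

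**Figure D1:**
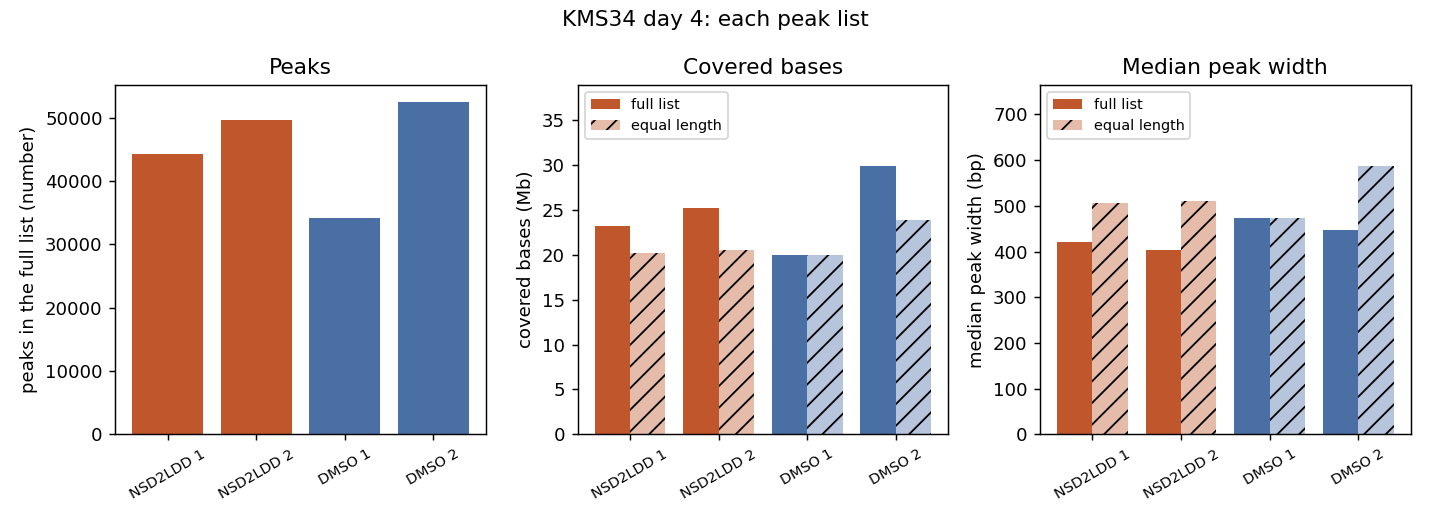
Number of peaks, bases covered by peaks (Mb) and median peak width (bp) in each of the 4 KMS34 day 4 libraries, with plain bars for the full list and, for covered bases and width, hatched bars for the strongest 34165 peaks of each list. DMSO library 1 has the fewest peaks (34165) and DMSO library 2 the most (52518), with both NSD2LDD libraries between them.

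Shared bases did not separate the groups. The NSD2LDD pair shared 63.2% of the bases that either covered and the DMSO pair shared 58.3%. The 4 pairs of 1 NSD2LDD and 1 DMSO library shared 59.4% to 65.2%, and the highest of these was NSD2LDD library 2 with DMSO library 2. At equal length the NSD2LDD pair shared 67.2%, the DMSO pair 64.8% and the mixed pairs 61.5% to 70.1%. All 4 libraries carried open sites at plasma cell genes: 22 and 21 of 22 listed plasma cell genes had covered bases in NSD2LDD, and 21 and 22 in DMSO. Most genes did: of all 19974 protein-coding genes, 3591 had no peak in any of the 4 libraries. Of 22 listed B cell genes, 18 and 19 were covered in NSD2LDD and 18 and 19 in DMSO. Among markers of other blood and tissue cells, GATA1, HBB, HBA1, ALAS2, PF4, MPO, CD33, CD3D, CD7, LUM and KDR had no peak in any of the 4. Covered T and NK cell markers numbered 11 and 11 of 14 in NSD2LDD and 11 and 12 in DMSO, with summed cover of 9585 and 10636 bp in NSD2LDD and 9677 and 15184 bp in DMSO. Covered myeloid markers numbered 3 and 4 of 10 in NSD2LDD and 4 and 8 in DMSO, with 1996 and 2288 bp in NSD2LDD and 2444 and 3622 bp in DMSO. Of 10 erythroid and megakaryocyte markers, 5 were covered in each of the 4 libraries. Of 10 stromal and endothelial markers, 7 and 8 were covered in NSD2LDD and 6 and 7 in DMSO. A covered gene is not an expressed one.

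Merging the peaks of the 4 lists on chromosomes 1 to 22 and X gave 64479 regions. Of these, 28341 (44.0%) were called in all 4 libraries. Another 1575 regions (2.44%) were called in both NSD2LDD libraries and in neither DMSO library, and 720 (1.12%) in both DMSO libraries and in neither NSD2LDD library. These 2 sets are called NSD2LDD-only and DMSO-only regions below. Both were small beside the regions called in a single library, of which 8670 came from an NSD2LDD library and 8967 from a DMSO library. The excess of NSD2LDD-only regions narrowed at equal list length, where 45213 regions gave 1058 NSD2LDD-only (2.34%) and 908 DMSO-only (2.01%). The sets themselves also changed: 426 NSD2LDD-only and 152 DMSO-only regions met the definition with both the full and the shortened lists. Of the 1058 NSD2LDD-only regions at equal length, 632 had a weaker peak in DMSO library 2, and of the 908 DMSO-only regions 397 had weaker peaks in both NSD2LDD libraries. Leaving out 1 library loosens the definition, so the counts can only stay or rise, and a rise does not show that this library carried the count. Without DMSO library 2 the NSD2LDD-only regions numbered 8321, and without DMSO library 1 the DMSO-only regions numbered 8415. Without NSD2LDD library 1 or 2 the NSD2LDD-only regions numbered 6369 or 5451 and the DMSO-only regions 1282 or 2583.

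**Figure D2:**
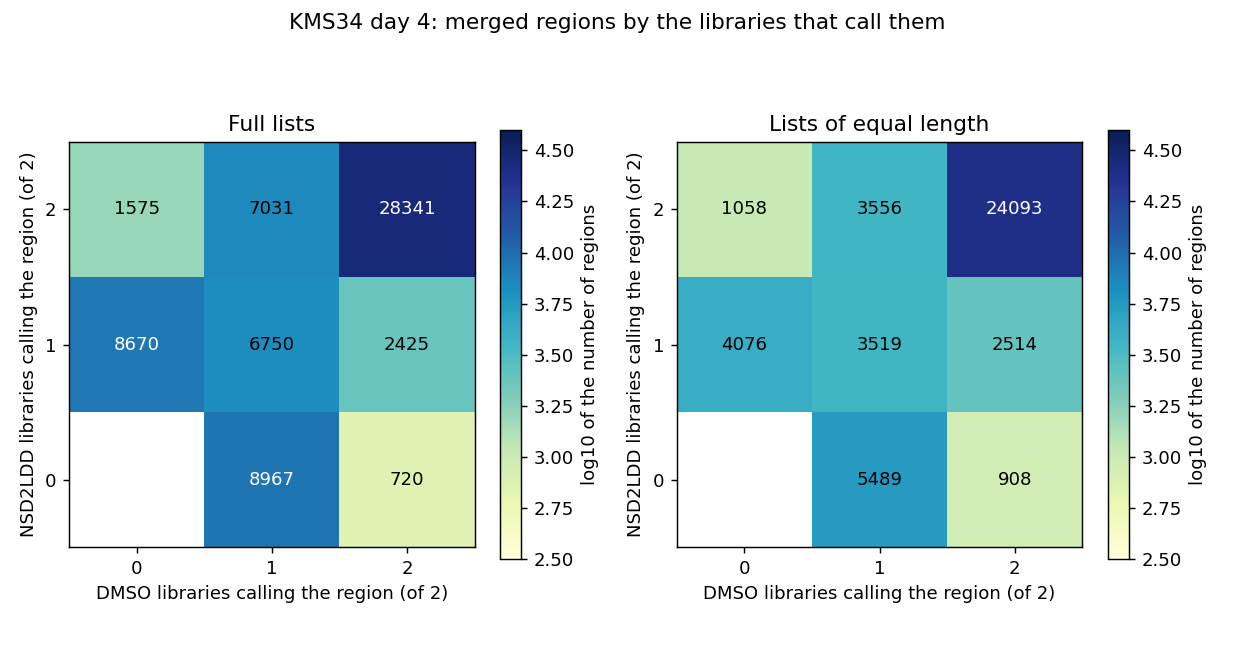
Number of merged regions by how many NSD2LDD libraries (rows) and DMSO libraries (columns) call them, for the full lists and for lists of equal length. Colour gives log10 of the number of regions. The top left cell (NSD2LDD-only) holds 1575 regions with the full lists and 1058 at equal length, and the bottom right cell (DMSO-only) 720 and 908.

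The regions in these sets were weak sites. Their definition favours this, because a site near the calling threshold is more easily missing from 2 lists than a strong one. The strongest peak of an NSD2LDD-only region ranked at a median of 77.4% and 76.7% of the way down its list in NSD2LDD libraries 1 and 2, where 0% is the strongest peak. The peaks of DMSO-only regions ranked at 87.7% and 79.6% in DMSO libraries 1 and 2. Regions called in all 4 libraries ranked at 33.3% and 29.9% in NSD2LDD and at 41.7% and 27.7% in DMSO. Over all regions called in a library the median was 49.4% and 49.2% in NSD2LDD and 49.4% and 49.8% in DMSO. The fold enrichment the authors deposited for those peaks had medians of 6.11 and 6.74 in NSD2LDD-only regions and 5.25 and 5.84 in DMSO-only regions. The covered length was short as well, at a median of 263 and 246 bp in NSD2LDD-only regions and 257 and 310 bp in DMSO-only regions.

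Promoters were rare in NSD2LDD-only regions and more frequent in DMSO-only regions. With the full lists both shares lay below that over all regions. Promoter windows of RefSeq (GRCh38.p14, 250 bases before to 50 after each start) overlapped 23 NSD2LDD-only regions (1.46%) and 74 DMSO-only regions (10.3%), against 34.2% of regions called in all 4 libraries. Over all 64479 regions the share was 16.5%. At equal list length promoter windows overlapped 11 of 1058 NSD2LDD-only regions (1.04%) and 156 of 908 DMSO-only regions (17.2%). The share was then 37.3% of regions called in all 4. The 25 windows in NSD2LDD-only regions had a median GC content of 47.7%, and the 88 windows in DMSO-only regions had 70.8%. The median was 66.7% over 14686 windows in regions called in all 4 and 58.7% over all 34961 windows. The windows below are shown because they belong to the 3 NSD2LDD-only and the 3 DMSO-only regions with the largest differences in covered bases at equal list length among the regions that overlap a promoter window. They run 5′ to 3′ on the strand of the gene, with capitals for motif matches. The first 3 lie in NSD2LDD-only regions.
GASK1B: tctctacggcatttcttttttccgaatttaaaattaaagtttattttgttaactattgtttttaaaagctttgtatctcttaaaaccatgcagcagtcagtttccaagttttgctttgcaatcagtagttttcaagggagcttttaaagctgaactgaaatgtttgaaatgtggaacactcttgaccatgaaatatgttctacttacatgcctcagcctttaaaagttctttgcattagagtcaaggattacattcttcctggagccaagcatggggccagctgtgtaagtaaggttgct
SFRP4: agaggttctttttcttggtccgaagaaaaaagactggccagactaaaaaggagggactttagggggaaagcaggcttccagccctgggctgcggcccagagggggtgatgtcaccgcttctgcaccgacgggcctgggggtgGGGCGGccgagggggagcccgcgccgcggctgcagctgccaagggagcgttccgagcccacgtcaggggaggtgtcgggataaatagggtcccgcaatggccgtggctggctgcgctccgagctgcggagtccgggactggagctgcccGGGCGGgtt
SPRY1: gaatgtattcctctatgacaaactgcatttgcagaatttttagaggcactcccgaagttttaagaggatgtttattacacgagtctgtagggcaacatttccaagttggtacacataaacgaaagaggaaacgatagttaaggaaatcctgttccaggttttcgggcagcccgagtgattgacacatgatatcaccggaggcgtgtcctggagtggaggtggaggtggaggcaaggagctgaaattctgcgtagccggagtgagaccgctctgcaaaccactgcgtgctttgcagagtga
The next 3 lie in DMSO-only regions.
MPG: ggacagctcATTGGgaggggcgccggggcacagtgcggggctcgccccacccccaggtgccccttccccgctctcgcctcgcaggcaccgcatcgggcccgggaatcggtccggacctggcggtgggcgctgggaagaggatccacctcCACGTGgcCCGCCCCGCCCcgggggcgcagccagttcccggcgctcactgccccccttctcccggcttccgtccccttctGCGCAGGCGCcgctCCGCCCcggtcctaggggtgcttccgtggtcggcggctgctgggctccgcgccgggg
SMOC1: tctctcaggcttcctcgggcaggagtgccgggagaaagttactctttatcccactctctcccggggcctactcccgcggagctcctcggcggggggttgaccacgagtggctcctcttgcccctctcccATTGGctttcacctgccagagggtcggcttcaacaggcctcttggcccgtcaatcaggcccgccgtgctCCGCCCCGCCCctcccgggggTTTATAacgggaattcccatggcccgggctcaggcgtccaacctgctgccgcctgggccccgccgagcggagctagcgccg
ZDHHC1: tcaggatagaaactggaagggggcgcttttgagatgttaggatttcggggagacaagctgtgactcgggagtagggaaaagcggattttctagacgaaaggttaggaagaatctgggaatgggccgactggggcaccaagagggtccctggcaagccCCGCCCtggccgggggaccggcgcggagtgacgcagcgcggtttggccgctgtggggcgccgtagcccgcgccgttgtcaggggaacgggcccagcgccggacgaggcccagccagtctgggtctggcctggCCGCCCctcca

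GASK1B encodes a Golgi-associated protein of a kinase-like family, and its window lies on the minus strand at chr4:158172324-158172623 with a GC content of 35.7%. The region over it had 536 and 332 covered bp in NSD2LDD and 0 and 0 bp in DMSO. SFRP4 encodes a secreted antagonist of WNT ligands (minus strand, chr7:37916768-37917067), and the region at the upstream end of its window had 308 and 287 covered bp in NSD2LDD against 0 and 0 bp in DMSO. Peaks reached into the SFRP4 window itself by 65 and 0 bp in NSD2LDD. SPRY1 encodes a feedback inhibitor of receptor tyrosine kinase and RAS signalling (plus strand, chr4:123396545-123396844), with 203 and 235 covered bp in NSD2LDD against 0 and 0 bp in DMSO. At day 10 the GASK1B region had 0 and 458 bp in NSD2LDD and 0 and 0 bp in DMSO, and the SFRP4 region had 188 and 368 bp in NSD2LDD and 0 and 274 bp in DMSO. The SPRY1 site was called in all 6 other KMS34 libraries, with 160 to 235 covered bp, including both DMSO libraries of day 10. MPG encodes the glycosylase that removes methylated purines in base excision repair (plus strand, chr16:77975-78274), and its window has a GC content of 77.0%. SMOC1 encodes a secreted calcium-binding protein of the basement membrane (plus strand, chr14:69879166-69879465). Its region had 0 and 0 covered bp in NSD2LDD and 553 and 568 bp in DMSO, and no peak in any of the other 6 KMS34 libraries. ZDHHC1 encodes a palmitoyltransferase (minus strand, chr16:67416428-67416727), with 0 and 0 covered bp in NSD2LDD and 381 and 564 bp in DMSO. At day 10 the ZDHHC1 region had 0 and 237 bp in NSD2LDD and 532 and 469 bp in DMSO, so the groups stood apart at both days.

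The windows were searched on both strands for 10 short motifs, with overlapping matches allowed. The GC box (GGGCGG), bound by SP and KLF factors, occurred in 6 of 25 windows of NSD2LDD-only regions (24.0%) and 67 of 88 windows of DMSO-only regions (76.1%). It occurred in 73.5% of windows in regions called in all 4 and 45.0% of all windows. The CCAAT box (CCAAT) was found in 10 of 25 windows of NSD2LDD-only regions and 11 of 88 windows of DMSO-only regions, against 34.6% of all windows. A pair of IRF cores (GAAA and GAAA with 2 bases between) was found in 5 of 25 and 1 of 88 windows, against 3.58% of all windows. The AP-1 motif (TGANTCA) was found in 4 of 25 and 7 of 88, against 7.68% of all, and the TATA box (TATAAA) in 4 of 25 and 4 of 88, against 11.5% of all. The E-box (CACGTG), CRE (TGACGTCA), ETS motif (CCGGAAG) and MAF recognition core (TGCTGAC) each occurred in 1 of the 25 windows, and in 10, 2, 11 and 2 of the 88. The NRF1 motif (GCGCA and GCGC with 1 base between) occurred in 0 of 25 and 2 of 88, against 5.80% of all windows. In the printed windows MPG holds 3 GC boxes, a CCAAT box, an E-box and an NRF1 motif. SMOC1 holds a TATA box, a CCAAT box and 2 GC boxes, SFRP4 and ZDHHC1 hold 2 GC boxes each, and GASK1B and SPRY1 hold none of the 10. A match describes letters in a window and shows no binding, and GC content was not held constant in these shares.

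The sets also differed in where they lay relative to genes. Of the NSD2LDD-only regions, 2.54% lay within 1 kb of an end of a protein-coding gene (95% Wilson interval 1.87% to 3.44%), against 15.7% of the DMSO-only regions (13.2% to 18.5%). These intervals cover counting error over regions, not the spread between libraries. At equal list length the shares were 2.84% and 18.8%. The gap was smaller among the 426 NSD2LDD-only and 152 DMSO-only regions that met the definition with both the full and the shortened lists. Of these, 3.76% (2.32% to 6.01%) and 9.87% (6.07% to 15.6%) lay at gene ends. Regions called in all 4 libraries had 36.7% at gene ends, and all 64479 regions had 19.0%. NSD2LDD-only regions lay inside protein-coding genes in 41.9% and between genes in 40.0%, and DMSO-only regions in 33.3% and 36.7%. More than 50 kb from any protein-coding gene lay 35.0% of NSD2LDD-only and 27.9% of DMSO-only regions, against 16.8% of those called in all 4 and 24.4% of all regions. The DMSO-only share at gene ends was lower with 1 DMSO library left out: without DMSO library 1, 6.14% of the regions then called in DMSO library 2 alone lay at gene ends, and without DMSO library 2 it was 10.7%.

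The other NSD2LDD and DMSO pairs, each merged from its own 4 lists, did not show a gap of the size seen in KMS34 at day 4 with full lists. In KMS34 at day 10 the share at gene ends was 3.55% of NSD2LDD-only and 4.30% of DMSO-only regions. In KMS11, another t(4;14) myeloma line, the shares were 7.30% and 8.02% at day 4 and 4.20% and 7.84% at day 10. The gap in KMS34 at day 4 was smaller with 1 DMSO library left out. Its NSD2LDD-only and DMSO-only shares were 2.69% and 6.14% without DMSO library 1, and 3.71% and 10.7% without DMSO library 2. The difference between these pairs and KMS34 at day 4 was not tested.

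**Figure D3:**
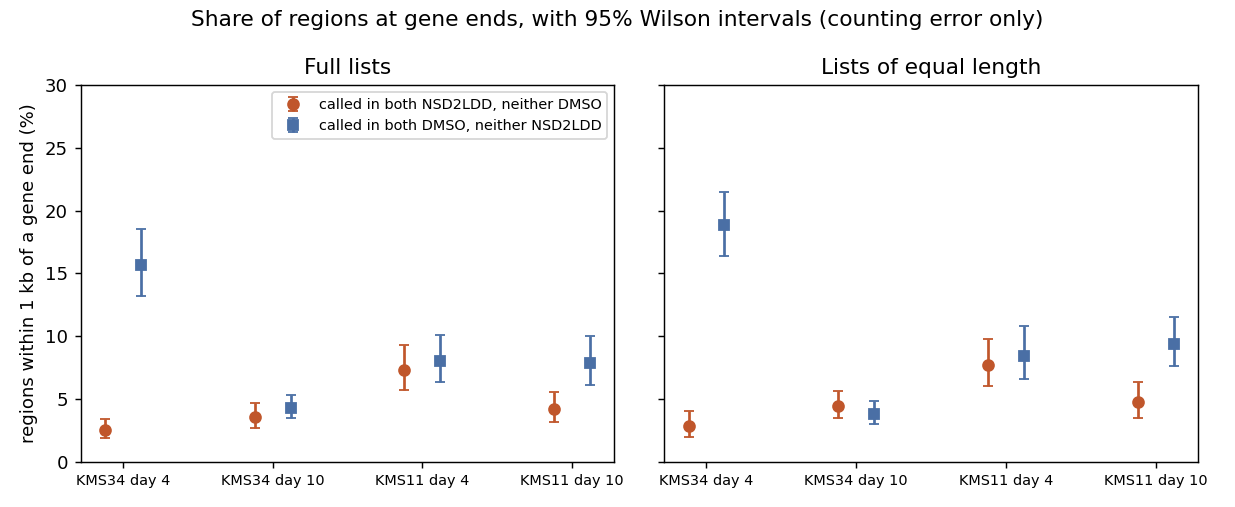
Share (%) of NSD2LDD-only and DMSO-only regions within 1 kb of a gene end in each NSD2LDD and DMSO pair of the series, with full lists and with lists of equal length. Bars are 95% Wilson intervals for counting error. KMS34 at day 4 has the widest gap of the 4 pairs, 2.54% against 15.7% with the full lists. Without DMSO library 1, which is not drawn, these shares were 2.69% and 6.14%.

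The sets were also spread unevenly over chromosomes. NSD2LDD-only regions numbered 5.56 per 100 regions called in all 4 libraries genome-wide, and 9.59 on chromosome 13, 9.41 on chromosome 4 and 9.07 on chromosome 18. They numbered 1.06 on chromosome 19 and 0.585 on chromosome 22. DMSO-only regions numbered 2.54 per 100 genome-wide, with 1.92 on chromosome 13, 2.86 on chromosome 4 and 3.09 on chromosome 18. They numbered 1.89 on chromosome 19 and 3.80 on chromosome 22. At equal length chromosome 4 had 7.75 NSD2LDD-only and 1.58 DMSO-only regions per 100, chromosome 19 had 0.804 and 4.11, and chromosome 22 had 0.820 and 9.43. Chromosomes 4, 13 and 18 are poor in genes and GC, and chromosomes 19 and 22 are rich in both. Base composition also went with the size of sites that were open in every KMS34 library. Split into 5 groups by the GC content of their promoter window, these sites had a median log2 difference in covered bases (NSD2LDD minus DMSO) of 0.018, -0.012, -0.022, -0.026 and -0.055 from the lowest to the highest GC. The day 10 libraries gave -0.022 at the lowest and -0.055 at the highest GC. The part of GC content in the differences between groups was not tested.

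Regions called in all 4 libraries also differed in size by class. At gene ends their median covered length was 825 and 858 bp in NSD2LDD and 876 and 994 bp in DMSO, a difference in which the groups do not overlap. Between genes the medians were 444 and 464 bp in NSD2LDD, inside the DMSO range of 391 and 517 bp. Scaled to the library median, the median log2 difference was -0.025 at gene ends, 0.071 between genes and 0.061 inside protein-coding genes.

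A test of covered bases found 1 region that differed. Of 46842 regions called in at least 2 of the 4 libraries, 0 were covered more and 1 less in NSD2LDD (0.00213% of regions tested; limma over the 10 KMS34 libraries, Benjamini-Hochberg adjusted p under 0.05). At an unadjusted p under 0.05 there were 4094 regions, 2604 covered more and 1490 less. In bare covered bases, 12.6% of regions had both NSD2LDD libraries above both DMSO libraries and 18.4% had both below. After scaling by the library median these shares were 23.9% and 12.9%, so the direction in which regions lean depended on the scaling. Without scaling, the median difference over tested regions moved from 0.06 to -0.02 on the log2 scale.

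The region that passed covers a promoter of MPG. Its 1184 bases at chr16:77346-78529 (hg38) had 0 and 0 covered bp in NSD2LDD and 1048 and 1046 bp in DMSO. The fitted log2 difference was -3.44 ± 0.26 (SE), with a limma adjusted p of 0.0038, and its size depends on the 100 bp added before the logarithm because NSD2LDD had no peak there. The site was open in all 6 other KMS34 libraries, with 392 and 658 bp in NSD2LDD at day 10, 909 and 458 bp in DMSO at day 10, and 953 and 641 bp at day 0. It was also called in 9 of 10 KMS11 libraries labelled t(4;14), and in 1 of 2 KMS11 libraries whose genotype is labelled TKO. The day 10 difference was -0.36 on the log2 scale, and the difference between the day 4 and day 10 effects did not pass (adjusted p = 0.14 over all regions, limma). The call was lost at equal list length (adjusted p = 0.325), without scaling (0.215), in the 4 libraries alone (0.843) and without DMSO library 1 (0.158), all by limma. The log2 difference in these settings was -3.43, -3.52, -3.45 and -3.33.

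Both NSD2LDD libraries lay below both DMSO libraries in 15.2% of tested regions and above them in 7.73%, in full and in shortened lists. The named regions are those of them with the 7 next smallest p on the side covered less in NSD2LDD and the 8 smallest on the side covered more, given as values because none passed. All of the 8 regions covered less lay within 1 kb of a gene end. The rule asks for groups apart, which was more frequent there. Of regions called in all 4 libraries, 35.2% at gene ends had both NSD2LDD libraries below both DMSO libraries, against 17.1% between genes. The region at LRRK1, a leucine-rich repeat kinase gene (chr15:100919051-100919871), had 333 and 291 covered bp in NSD2LDD and 685 and 785 bp in DMSO. At day 10 the order was the other way, with 672 and 788 bp in NSD2LDD and 528 and 394 bp in DMSO. The region at PRTG, which encodes a developmental cell surface protein of the immunoglobulin superfamily (chr15:55742343-55743419), had 431 and 339 bp in NSD2LDD and 904 and 991 bp in DMSO. It kept this order at day 10, with 282 and 368 bp in NSD2LDD and 1009 and 685 bp in DMSO, a log2 difference of -1.21 beside -1.03 at day 4 (limma adjusted p = 0.170 at day 10 and 0.343 at day 4). The region at NKAIN3, which encodes a protein that interacts with the sodium pump (chr8:62248055-62249080), had 0 and 0 bp in NSD2LDD and 991 and 976 bp in DMSO. At day 10 it had 0 and 275 bp in NSD2LDD and 853 and 400 bp in DMSO. The regions at TUBB2B, a beta-tubulin gene, LURAP1L, TTC9 and TBC1D16 stayed open in NSD2LDD but were narrower. The TUBB2B region had 915 and 961 bp in NSD2LDD and 1582 and 1594 bp in DMSO (log2 difference -0.62 ± 0.11 SE, limma adjusted p = 0.343). At day 10 the order at LURAP1L was the other way, with 1466 and 1875 bp in NSD2LDD and 1348 and 891 bp in DMSO. The groups overlapped at day 10 in the regions at MPG, TUBB2B, TTC9 and TBC1D16. In windows of 150 bp on either side of peak summits the day 4 TUBB2B difference reversed and passed (2.00 on the log2 scale, limma adjusted p = 0.000444). Such a window records where a summit lay, and the region itself was covered in both libraries of both groups.

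Of the 8 regions covered more in NSD2LDD, none lay within 1 kb of a gene end. On this side the rule favours other sites. Of regions called in all 4 libraries, 3.87% at gene ends had both NSD2LDD libraries above both DMSO libraries, against 12.2% between genes. The region with the smallest p of the 8 lay inside NCKAP1, a gene of the WAVE complex that drives actin assembly (chr2:182971946-182972518). It had 502 and 573 bp in NSD2LDD and 0 and 0 bp in DMSO, and it was called in all 6 other KMS34 libraries (498 to 573 bp), in all 10 KMS11 libraries labelled t(4;14) and in both labelled TKO. Its fitted log2 difference was 2.75 ± 0.32 (SE) with a limma adjusted p of 0.087. The DMSO day 4 libraries were thus the ones without it. The region inside ELOVL7, a fatty acid elongase gene (chr5:60829647-60830904), had 1105 and 1062 bp in NSD2LDD and 224 and 508 bp in DMSO (log2 difference 1.50 ± 0.26 SE, limma adjusted p = 0.343). At day 10 it had 835 and 946 bp in NSD2LDD and 412 and 348 bp in DMSO. The region inside TP53BP1, a DNA damage response gene (chr15:43440747-43441651), had 860 and 801 bp in NSD2LDD and 256 and 431 bp in DMSO. At day 10 it had 479 and 798 bp in NSD2LDD and 427 and 422 bp in DMSO. LRRN3, a gene of a neuronal leucine-rich repeat protein, had 1018 and 1157 bp in NSD2LDD and 472 and 620 bp in DMSO in a region inside the gene, and 784 and 1003 bp in NSD2LDD and 558 and 525 bp in DMSO at day 10. The others lay inside ANKRD28, 3613 bp from SNX16, and 229152 and 253111 bp from RAP2B and EPHB1, the nearest protein-coding genes. At day 10 the groups were apart in the same direction in 5 of the 8 regions, those at ELOVL7, TP53BP1, LRRN3, ANKRD28 and EPHB1. The gap at EPHB1 was narrow, with 575 and 583 bp in NSD2LDD and 571 and 425 bp in DMSO. No share of all regions apart at day 10 is set beside this count, which therefore shows no excess. In summit windows the sign turned for the regions at RAP2B, SNX16 and ANKRD28, with limma adjusted p of 0.354, 0.0665 and 1.0. Each of them was covered in both libraries of both groups, and summit windows record where summits lay. Without DMSO library 2, which had the longest list, all 8 of these had a limma adjusted p between 0.00178 and 0.0372.

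**Figure D4:**
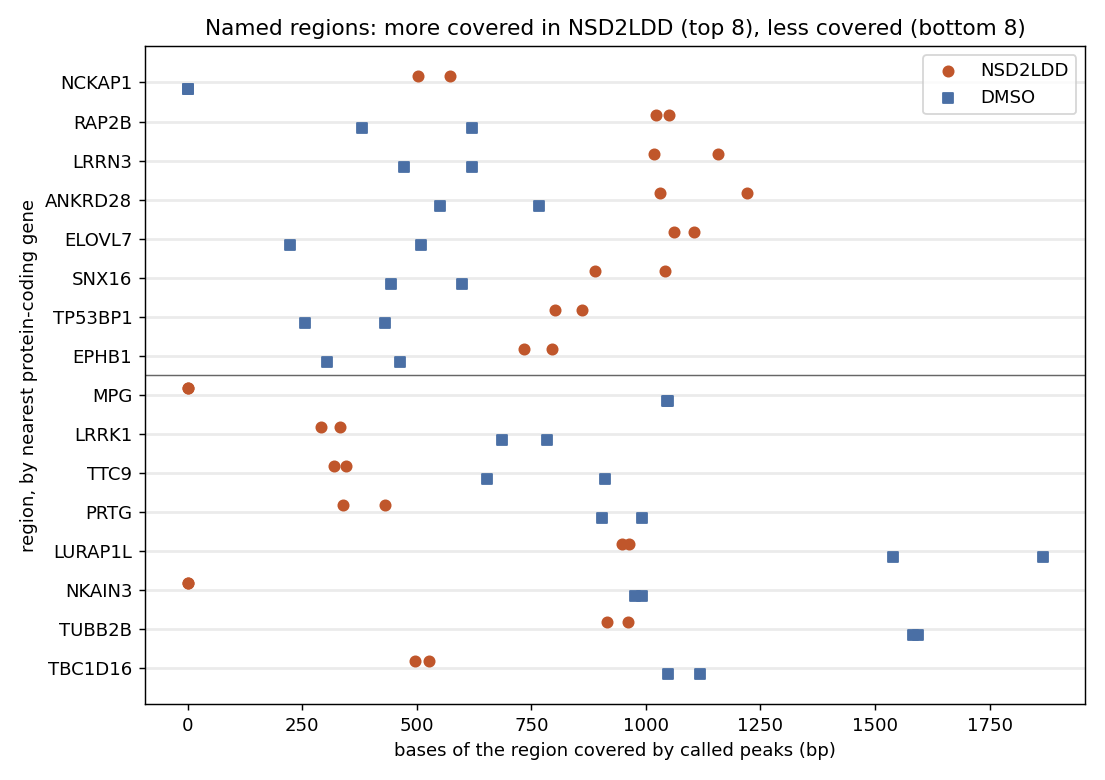
Bases covered by called peaks (bp) in the 16 named regions, with a point for each NSD2LDD library and a square for each DMSO library. The top 8 regions are covered more in NSD2LDD and the bottom 8 less. MPG and NKAIN3 have 0 bp in both NSD2LDD libraries, and NCKAP1 has 0 bp in both DMSO libraries.

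The number of regions that passed varied with the libraries and the lists used. Without DMSO library 2, 1225 regions were covered more and 18 less, and without DMSO library 1 the numbers were 0 and 0. At equal list length 7 regions were covered more and 40 less in NSD2LDD (0.0196% and 0.112%, together 0.132%, of 35648 tested), with MPG not among them. Shortening the lists made these calls: all 7 covered more had a peak in DMSO library 2 in the full list, and 36 of the 40 covered less had peaks in both NSD2LDD libraries. Examples are the region at CYFIP1, a partner of NCKAP1 in the WAVE complex, and at GSTO1, a glutathione transferase gene. The CYFIP1 region had 846 and 1480 bp in NSD2LDD and 1166 and 1308 bp in DMSO with full lists, against 0 and 0 bp in NSD2LDD and 1166 and 1308 bp in DMSO at equal length. Of these 47 calls 25 (53.2%) had the same sign at day 10, against 49.9% of all regions tested at equal length.

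No gene passed when peaks were summed over the gene body and 5 kb either side. Such a window can overlap those of neighbours, so its covered bases need not belong to the named gene alone. Among the genes named below this was so for NSD2 (NELFA), FGFR3 (LETM1), SLC4A10 (DPP4), TFDP1 (GRK1, ATP4B and LOC124903219), MAPK11 (MAPK12 and PLXNB2), KDM6B and others. Of 15751 protein-coding genes tested 0 passed in either direction (0.0%, limma), and 827 had an unadjusted p under 0.05, 457 covered more and 370 less. In bare covered bases 5.47% of genes had both NSD2LDD libraries above both DMSO libraries and 24.1% had both below, against 17.5% and 16.0% after scaling. At equal length 1 gene passed (0.00666% of those tested), CYFIP1, covered less through the region above.

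Neither gene at the translocation passed the test, nor did 4 regulators of myeloma cells. NSD2 had 1507 and 1850 covered bp in NSD2LDD and 2391 and 2615 bp in DMSO, with the groups apart (log2 difference -0.44 ± 0.54 SE, limma adjusted p = 1.00). At day 10 NSD2 had 1973 and 740 bp in NSD2LDD and 4060 and 690 bp in DMSO, and there the groups overlapped. FGFR3 had 1158 and 1899 bp in NSD2LDD and 1546 and 2303 bp in DMSO. IRF4, the transcription factor on which myeloma cells depend, had 889 and 1733 bp in NSD2LDD and 1582 and 1575 bp in DMSO. PRDM1, the regulator of plasma cell fate, had 3604 and 3513 bp in NSD2LDD and 3620 and 4228 bp in DMSO. CCND2, the D-type cyclin common in t(4;14) myeloma, had 1640 and 2127 bp in NSD2LDD and 1845 and 2646 bp in DMSO. MYC, the growth regulator, had 2114 and 2537 bp in NSD2LDD and 2165 and 2932 bp in DMSO. The log2 differences of these 5 genes lay between -0.21 (FGFR3) and -0.02 (MYC).

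In full and shortened lists alike, 3.26% of genes had both NSD2LDD libraries above both DMSO libraries and 21.5% had both below. Of these the genes with the smallest p are given as values. On the side covered more, SLC4A10, a bicarbonate transporter gene, had 1627 and 1787 bp in NSD2LDD and 574 and 1084 bp in DMSO (log2 difference 1.03 ± 0.18 SE, limma adjusted p = 0.759). At day 10 SLC4A10 had 1729 and 1642 bp in NSD2LDD and 818 and 673 bp in DMSO, so the groups stood apart at both days. LUZP2 had 2433 and 1786 bp in NSD2LDD and 661 and 1095 bp in DMSO, and at day 10 it had 2792 and 2972 bp in NSD2LDD and 2286 and 1476 bp in DMSO. TRPC6, a calcium-permeable channel gene, had 1208 and 833 bp in NSD2LDD and 303 and 393 bp in DMSO. ASB5 had 463 and 506 bp in NSD2LDD and 0 and 0 bp in DMSO, but 237 and 495 bp in NSD2LDD and 643 and 445 bp in DMSO at day 10. LTB4R, a leukotriene receptor gene, had 1159 and 1185 bp in NSD2LDD and 546 and 794 bp in DMSO in a window it shares with 4 neighbours. RBM33, MARCHF11 and EFHB complete the 8, with log2 differences of 0.71, 1.14 and 0.67.

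On the side covered less, MPG led again, because its window holds the region described above (log2 difference -2.55 ± 0.34 SE, limma adjusted p = 0.309). TFDP1, the dimerization partner of E2F factors, had 299 and 396 bp in NSD2LDD and 1205 and 1063 bp in DMSO (log2 difference -1.19 ± 0.26 SE, limma adjusted p = 0.759). ARID4A, which encodes a binding partner of the retinoblastoma protein, had 883 and 1047 bp in NSD2LDD and 1776 and 1968 bp in DMSO. Both are linked to control of entry into S phase. MAPK11, a p38 kinase gene, had 0 and 564 bp in NSD2LDD and 1780 and 1919 bp in DMSO. TMEM98 had 0 and 0 bp in NSD2LDD and 339 and 1010 bp in DMSO, but 486 and 496 bp in NSD2LDD and 455 and 268 bp in DMSO at day 10. BAALC, TTC9 and ZBTB49 complete the 8, with log2 differences of -1.22, -1.12 and -0.75. None of TFDP1, ARID4A and MAPK11 had groups apart at day 10.

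None of the 20 gene lists had a member that passed. The median log2 difference was lowest for B cell genes at -0.26 (-0.19 at equal length, 18 tested), and the other 19 lists ran from -0.10 (T and NK cell genes) to 0.07 (NF-kappaB genes), beside 0.01 over all genes. Among 29 genes of AP-1, MAPK and RAS feedback, 14 had both NSD2LDD libraries below both DMSO libraries and 3 had them above. The same was so of 10 and 1 of 29 housekeeping genes, 13 and 0 of 30 cell cycle genes, 11 and 0 of 29 genes of H3K36 and H3K27 methylation, and 3 and 0 of 21 genes tied to t(4;14) and NSD2. Developmental regulators had 11 below and 2 above of 34, and axon guidance genes 8 and 2 of 32. Plasma cell genes had 7 and 2 of 22, apoptosis genes 7 and 2 of 25, and B cell genes 6 and 0 of 18. T and NK cell genes had 5 and 1 of 11, NF-kappaB genes 5 and 1 of 20, and interferon response genes 5 and 1 of 26. Myeloid genes had 4 and 1 of 5, erythroid and megakaryocyte genes 2 and 0 of 5, and stromal and endothelial genes 2 and 1 of 8. Few lay on either side in 4 lists: adhesion 2 below and 2 above of 29, secretion and the unfolded protein response 2 and 2 of 25, antigen presentation 2 and 1 of 21, and voltage-gated ion channels 3 and 2 of 29. These counts are in bare covered bases, in which 24.1% of all genes lay below and 5.47% above.

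Within the AP-1, MAPK and RAS list, values lay on both sides. JUN, an AP-1 subunit, had 1103 and 1101 bp in NSD2LDD and 1854 and 1827 bp in DMSO (log2 difference -0.55 ± 0.26 SE, limma adjusted p = 0.937). FOS, its partner, had 1145 and 1443 bp in NSD2LDD and 1582 and 1740 bp in DMSO. ETV4, a factor induced by FGF and ERK signalling, had 841 and 832 bp in NSD2LDD and 1301 and 1336 bp in DMSO. SPRY2, the list member with the smallest p, had 1040 and 1076 bp in NSD2LDD and 1872 and 1917 bp in DMSO (log2 difference -0.64 ± 0.20 SE, limma adjusted p = 0.937). At day 10 SPRY2 had 1596 and 1978 bp in NSD2LDD and 2422 and 1193 bp in DMSO, with the groups overlapping. Its relative SPRY1 had 2619 and 2353 bp in NSD2LDD and 2154 and 2315 bp in DMSO, in the other direction. NRAS had 1032 and 915 bp in NSD2LDD and 707 and 761 bp in DMSO. JUN, FOS, ETV4 and NRAS were picked from the list after their values were seen.

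The member with the smallest p in each other list had a limma adjusted p of 0.937 or more. BCL2, the survival gene targeted by venetoclax, had 5232 and 6419 bp in NSD2LDD and 3364 and 6389 bp in DMSO. CXCR4, the receptor that homes plasma cells to bone marrow, had 2212 and 2133 bp in NSD2LDD and 1857 and 1978 bp in DMSO. BANK1, a B cell receptor scaffold gene, had 1650 and 1824 bp in NSD2LDD and 968 and 1745 bp in DMSO. TRAF1, an adaptor and target of NF-kappaB, had 1384 and 1036 bp in NSD2LDD and 528 and 896 bp in DMSO. KDM6B, which encodes a demethylase of H3K27, had 3412 and 4100 bp in NSD2LDD and 5708 and 6002 bp in DMSO. SEL1L, of the degradation of misfolded proteins in the endoplasmic reticulum, had 2116 and 1885 bp in NSD2LDD and 1096 and 1713 bp in DMSO. CACNA1D, a calcium channel gene, had 191 and 701 bp in NSD2LDD and 1151 and 1361 bp in DMSO, and at day 10 it had 592 and 451 bp in NSD2LDD and 1351 and 874 bp in DMSO. The groups thus stood apart at both days for CACNA1D. For other lists these members were IFIT3, HLA-DPA1, ITGAV, PLK1, SOX5, SEMA5A, RPL3, TBX21, CSF1R, ITGA2B and DCN, with log2 differences from -1.01 (CSF1R) to 1.22 (DCN).

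Most regions of both sets were called in at least 1 of the other 6 KMS34 libraries. The share in a single library was lower than that over all regions, except for DMSO-only regions in DMSO library 1 of day 10. Of the 1575 NSD2LDD-only regions, 52.7% and 36.7% were called in the NSD2LDD libraries of day 10, 43.4% and 39.4% in the DMSO libraries of day 10, and 37.1% and 24.8% at day 0. Of the 720 DMSO-only regions, 42.9% and 38.3% were called in the NSD2LDD libraries of day 10, 70.8% and 32.4% in the DMSO libraries of day 10, and 42.2% and 30.3% at day 0. Over all 64479 regions the shares were 66.5% and 61.2% in NSD2LDD at day 10, 70.7% and 61.2% in DMSO at day 10, and 60.9% and 55.9% at day 0. The NSD2LDD and DMSO libraries of day 10 overlapped in both sets, and so they did for the sets chosen at equal length and looked up in lists of equal length. In none of the other 6 KMS34 libraries were 216 NSD2LDD-only (13.7%) and 84 DMSO-only regions (11.7%) called, against 0.0388% of regions called in all 4. Genes with the most NSD2LDD-only regions were PCDH15 and PDE4D with 5 each and ERBB4 and OXR1 with 4 each, none with a DMSO-only region. With lists of equal length they had 2, 4, 0 and 1, and OXR1 also had 1 DMSO-only region. These genes are long, at 1825.2, 1553.1, 1163.1 and 482.5 kb, and hold 9, 17, 9 and 18 regions called in all 4 libraries. The counts were not set against gene length, and over all regions 2.44% were NSD2LDD-only.

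**Figure D5:**
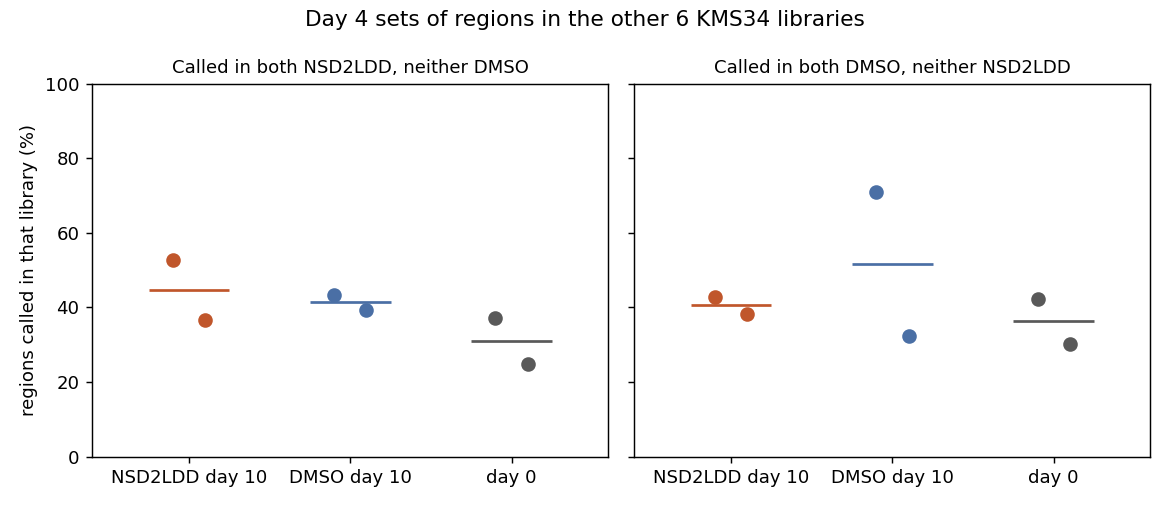
Share (%) of the 1575 NSD2LDD-only regions (left) and the 720 DMSO-only regions (right) called in each of the other 6 KMS34 libraries, with a point for each library and a line at the mean of 2. The NSD2LDD and DMSO libraries of day 10 overlap in both panels.

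Day 10 gives libraries that share no control with day 4. Among the 457 genes covered more at day 4 at an unadjusted p under 0.05, 69.8% had a positive difference at day 10, against 53.6% of all 8233 genes with a positive difference at day 4. Among the 370 genes covered less, 63.5% had a negative difference at day 10, against 55.3% of all 7518 genes with a negative difference. In KMS11, whose libraries share neither cells nor controls with these, 63.0% of the 457 genes had a positive difference at day 4 (50.2% of all) and 52.3% at day 10 (50.0% of all). Of the 370 genes, 57.3% had a negative difference in KMS11 at day 4 (56.8% of all) and 60.5% at day 10 (57.8% of all). For regions in KMS34 at day 10 the shares were 49.0% against 42.6% on the side covered more and 61.4% against 59.4% on the side covered less. For regions in KMS11 they were 30.9% against 34.3% at day 4 and 79.5% against 73.5% at day 10 on the side covered more, and 68.7% against 65.1% and 36.8% against 34.6% on the side covered less. The median KMS11 difference was -0.011 at day 4 and 0.017 at day 10 on both sides, among chosen and all regions alike. A region without a KMS11 peak takes its sign from the centring of the libraries, so the KMS11 region shares cannot show a shared direction. The test of the day 4 effect minus the day 10 effect called 1 region (0.00213%) and 0 genes (0.0%) by limma.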

How the data were processed

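ATAC-seq was made from about 200K cells a library, per the labels' protocols. The authors deposited 1 peak list for each library. Per the submitters' processing notes, fastp, BWA, SAMtools, Picard, MACS3 and deepTools were used on hg38. Versions, the Tn5 shift, duplicate removal and calling thresholds are not stated there. The deposited score is 10 times the -log10 q and was not used. The deposited ratio is the fold enrichment of a peak over its modelled background, and it was used as a description only. The deposited -log10 q ranked peaks within a list, and its lowest value in the 4 lists is 2.0. No counts or depths are in these lists.

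Peaks of the 4 libraries were merged into regions, and the value of a feature in a library was its number of covered bases. Features covered in at least 2 of the 4 libraries were tested. To the covered bp were added 100 (regions) or 200 (genes) before log2, and each library was centred on its median over features covered in all 10 KMS34 libraries (24187 regions, 14121 genes). Differences were fitted with limma 3.58.1 (trend, robust) under R 4.3.3 on 5 groups of 2 libraries (5 residual degrees of freedom) and Benjamini-Hochberg adjustment at 0.05 over all features tested. Genes were 19974 protein-coding genes of RefSeq GRCh38.p14, which gives no strand or exons in the table used, so gene ends are either end. Python 3.11.15 with pandas 2.3.3, numpy 2.4.6, matplotlib 3.10.9 and scipy 1.17.1 did the rest. Coverage was tested against bedtools 2.31.1 and the fits on simulated data.

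The members, the 20 gene lists and the rule for named features were chosen with earlier results of these data known. The rule takes the 8 regions and 8 genes in each direction with the smallest p whose groups do not overlap in full and shortened lists (by size where enough pass), the smallest p of each list, NSD2, FGFR3, IRF4, CCND2, MYC and PRDM1, and 3 promoters of each set. Alternatives varied list length, peak threshold, scaling, libraries, model, bases added, minimum of libraries, windows and replicate block. The values of some list members are not reported here.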

Additional observations from a re-analysis of the deposited data

How the results depend on the processing

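The number of regions that passed moved with most choices. Beside 1 with the full lists it was 47 with lists of equal length, 0 without scaling, 5 with quantile normalization, 971 with all 22 libraries, 0 with the 4 libraries alone, 528 without trend and robust, 2 with 30 bp added, 8 with regions called in at least 1 of 4, 0 with those called in at least 3 of 4 and 671 in summit windows. A fit of called against not called could not be made, because 53.5% of regions had no residual spread. Leaving out 1 library gave 0 to 1243. Genes that passed numbered 1 with lists of equal length and 0 to 6 with 1 library left out, MAPK11 without NSD2LDD library 2 and 6 others without DMSO library 2, and 0 otherwise.

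NSD2LDD-only regions numbered 1860 to 8321 and DMSO-only regions 1282 to 8415 with 1 library left out, which loosens the definition and cannot lower the counts. DMSO-only regions numbered 1209 where a region counted as called with a share of 0.5 of its bases under peaks. The share at gene ends was 2.37% to 3.71% of NSD2LDD-only and 6.14% to 14.9% of DMSO-only regions with 1 library left out. Within 3 kb of a gene end lay 6.16% and 21.8%. For DMSO-only regions it was 18.8% at equal length, 20.5% with -log10 q of 5 or more and 25.1% with that share covered. The difference in peak number ranged from -5636.5 to 12716.5 and in covered bases from -5.75 to 4.17 Mb with 1 library left out. The region at TUBB2B reversed in summit windows (2.00 on the log2 scale), which record where summits lay and not how much was covered. The cause of these changes was not tested.

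The replicate block left 1 region and 0 genes passing. Whether replicate numbers pair these samples cannot be told. Deviations of NSD2LDD and DMSO libraries of day 4 correlated at 0.114 over regions and 0.173 over genes. Other pairs of KMS34 groups gave -0.128 to 0.0459 over regions and -0.217 to 0.182 over genes. With 2 numbers a group these values neither show nor exclude pairing. Of 268 values of the 16 named regions under alternatives, 240 kept their side of the threshold, 23 passed newly, 4 no longer passed and 1 reversed, with 4 changes of sign in 4 regions. Of 701 values of 42 named genes, 700 kept their side of the threshold, with 19 changes of sign in 9 genes. Unknown depth, 2 libraries a group and presence or absence of a call limit what these lists can show.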
